A study of Mus musculus with 9 samples.

Results

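The heat shock chaperones described here are 10 genes, chosen by symbol from a table of 21930 protein-coding genes measured in mouse lung. Of these, 7 are usually classed as heat-inducible (Hspa1a, Hspa1b, Dnajb1, Hsph1, Hsp90aa1, Hspb1 and Bag3) and 3 as constitutive (Hspa8, Hspd1 and Hspe1). All 10 had enough reads to be tested. Lung RNA came from 9 mice in 3 groups of 3, and the series' design text calls the libraries biological replicates. The mice are described as male C57BL/6 animals of 6 to 8 weeks, and all were anaesthetised with tribromoethanol (1.25%, 20 mL/kg) for instillation into the trachea. Control mice received saline. LPS mice received lipopolysaccharide, a bacterial cell wall molecule sensed by innate immunity, at 2 mg/kg, and vehicle by gavage. LPS plus RSBD mice received the same LPS and, from 24 hours later, a daily gavage of RSBD, the decocted herbal formula Renshen Baidu Powder, at a dose not given in the sources used here. Lungs of all groups were taken on day 5 after instillation. The treatment protocol, which is the same text for all groups, gives 5 days of gavage with RSBD or vehicle, and the design text names vehicle for the LPS group and saline for the controls. Instilled LPS is a model of acute lung injury, and the comparisons ask which transcripts differ on day 5 after LPS and whether RSBD changes them.

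Chaperones bind unfolded or partly folded proteins, keep them from aggregating, and help them fold or be degraded. When proteins unfold, as in heat, the transcription factor HSF1 is released from chaperones, forms trimers and binds heat shock elements, which are inverted repeats of the letters GAA, in the promoters of inducible chaperone genes. Constitutive relatives such as Hspa8 do the same work in unstressed cells. In the lung, chaperone levels are known to follow heat, oxidants, inflammation and the daily rhythm of body temperature.

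Promoter sequences are shown for 5 genes in which letters of the heat shock element were found: 4 whose transcripts fell by over 1.5 on the log2 scale after LPS (Hspa1a, Hspa1b, Hsph1 and Hspb1), and Hspe1, which has a row of such units but did not pass. RefSeq promoter windows on GRCm38.p6 were matched for 8 of the 10 genes (not Hspa8 and Hsp90aa1), as 11 windows of 300 bases (250 before the start to 50 after it). Each was searched on both strands for a pair of inverted units (GAANNTTC or TTCNNGAA) and for 3 units in a row (GAANNTTCNNGAA or TTCNNGAANNTTC), which contain the pairs. The pair was found in windows of 7 of the 8 genes and in 15.1% of all 32851 windows. The row of 3 units was found for 3 genes (Hsph1, Hspd1 and Hspe1) and in 0.603% of all windows. These counts are of genes, some with more than 1 window, and the shares are of windows, so they are not like measures. A match describes letters and not a bound site. Neither window of Dnajb1 held the pair. Bag3 held 1 pair, beginning at base 43 after the start. The plot of element positions shows all matches. Below, capitals mark the matched letters, each sequence runs 5′ to 3′ on the gene's strand, and Hspa1a, Hspa1b and Hspb1 are shown over the 250 bases before the start.

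Hspa1a (chr17:34972157-34972406, minus strand): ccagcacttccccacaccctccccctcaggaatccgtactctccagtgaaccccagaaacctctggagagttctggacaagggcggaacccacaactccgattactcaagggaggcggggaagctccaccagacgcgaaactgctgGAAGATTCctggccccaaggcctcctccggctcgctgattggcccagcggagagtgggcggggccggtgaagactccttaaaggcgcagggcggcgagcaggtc
Hspa1b (chr17:34959239-34959488, minus strand): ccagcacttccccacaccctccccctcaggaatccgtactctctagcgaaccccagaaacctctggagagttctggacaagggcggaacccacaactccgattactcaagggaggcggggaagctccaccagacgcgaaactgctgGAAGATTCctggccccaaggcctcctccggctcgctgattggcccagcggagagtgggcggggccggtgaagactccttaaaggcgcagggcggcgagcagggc
Hspb1 (chr5:135887669-135887918, plus strand): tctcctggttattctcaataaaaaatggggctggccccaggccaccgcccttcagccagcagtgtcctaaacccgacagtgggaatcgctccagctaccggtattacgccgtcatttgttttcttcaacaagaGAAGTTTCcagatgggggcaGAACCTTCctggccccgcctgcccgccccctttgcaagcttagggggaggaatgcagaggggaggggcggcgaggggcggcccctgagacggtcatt
Hspe1 (chr1:55088053-55088082, plus strand, 30 bases that are also exon of Hspd1): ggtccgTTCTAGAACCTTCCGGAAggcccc
Hsph1 (chr5:149636280-149636309, minus strand, 30 bases of its exon just after the start): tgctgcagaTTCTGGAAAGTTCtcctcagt

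The upstream stretches of Hspa1a and Hspa1b were identical at 247 of 250 bases, and their pair begins 104 bases before the start in both. In Hspb1 the pairs begin 117 and 97 bases before the start. Hspd1 and Hspe1 lie head to head on opposite strands and overlap by 112 bases. The same row of units lies upstream of Hspe1 and, read on the other strand, in 1 of the 2 windows of Hspd1, while the other Hspd1 window, at the start of the annotated gene, held no pair.

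**Figure D1:**
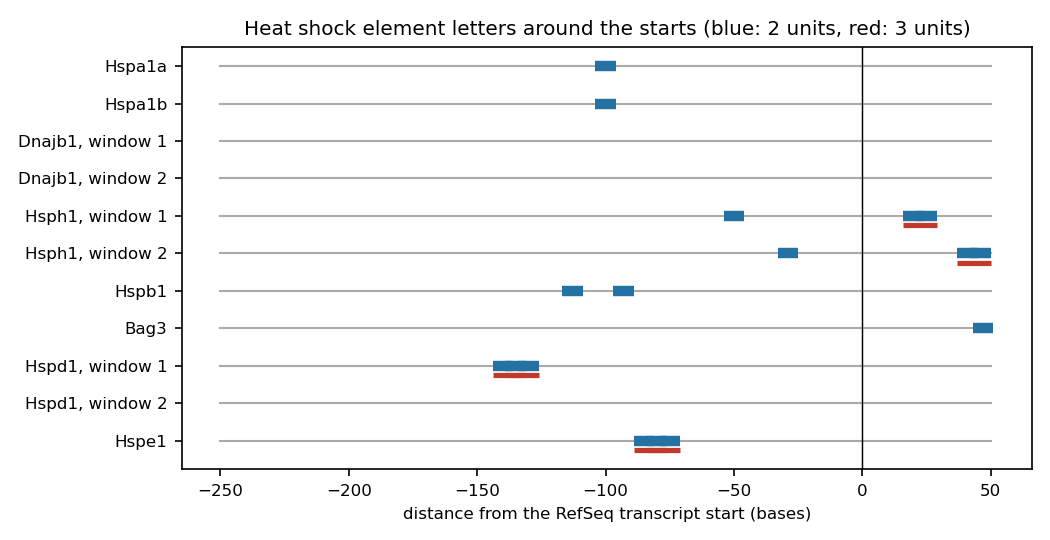
Positions of heat shock element letters in 11 promoter windows of 8 chaperone genes. The horizontal axis is the distance from the RefSeq transcript start in bases, grey lines are the windows searched, blue bars are pairs of inverted units and red bars rows of 3 units. Hspa1a and Hspa1b have a pair at the same distance, and the rows of 3 units are those of Hsph1, Hspd1 and Hspe1.

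Total counts per library ranged from 26959662 to 36113905. The 3 control libraries stand apart in one respect that goes against their label: they held 6 to 9 reads of chromosome Y genes, against 7511 to 10918 in the other 6, although every mouse is labelled male. Every difference from control below also sets libraries lacking chromosome Y transcripts against libraries that have them, and the 2 contrasts cannot be told apart. The comparison of LPS plus RSBD with LPS is free of this. All 10 alveolar epithelial and all 10 endothelial genes listed had reads in every library. So did all 12 cardiac muscle genes listed, so the presence of reads does not test the labelled tissue. In whole lung, fewer cells of a type and less RNA per cell cannot be told apart. Levels are in CPM, the usual scaling of counts to a common library total, here with TMM-scaled totals, with mean ± SD over n = 3 libraries. Differences are on the log2 scale with their SE, from 1 quasi-likelihood model (edgeR) of all 9 libraries, with Benjamini-Hochberg adjusted p over 15636 genes and a threshold of 0.05.

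Heat shock chaperone transcripts were lower in LPS lungs than in control lungs on day 5. Of the 10 genes 8 fell, 0 rose and 2 (Bag3 and Hspe1) did not pass, where 8.63% of all genes tested fell and 8.79% rose (17.4% in either direction). The groups did not overlap for the same number, 8 genes, all lower in LPS, where 19.5% of all genes lay lower and 18.6% higher without overlap. The median log2 change was -1.13 over the 10 genes and -0.0065 over all genes tested. Among the inducible genes 6 of 7 fell, with a median of -1.55, and among the constitutive genes 2 of 3, with a median of -0.51. These genes were chosen with results of these data known, so the counts describe the genes and are not independent evidence of a direction.

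**Figure D2:**
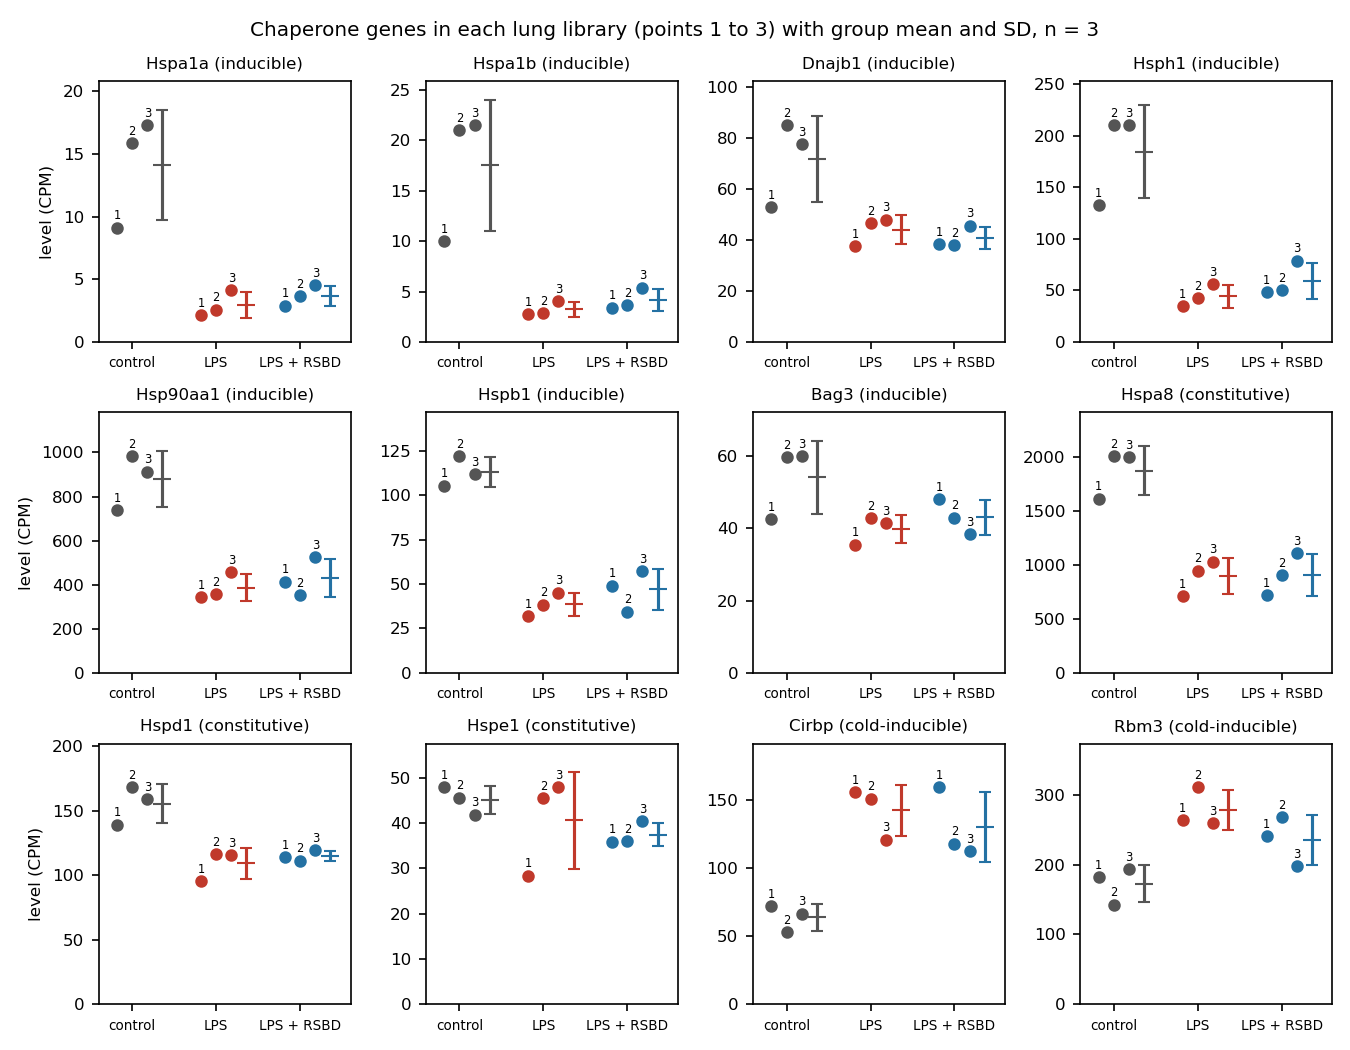
Level of each chaperone gene, and of the cold-inducible genes Cirbp and Rbm3, in every library. The vertical axis is CPM from 0, points are libraries numbered 1 to 3, and the bar beside them is the group mean ± SD. For every chaperone gene except Bag3 and Hspe1 all control libraries lie above all 6 others, while Cirbp shows the opposite order.

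Hspa1a and Hspa1b encode the stress-inducible cytosolic HSP70, the chaperone that unstressed cells keep low and make in bulk on heat shock. Hspa1a (chromosome 17, 34969190 to 34972156) measured 9.11, 15.9 and 17.3 CPM in control libraries 1 to 3, 2.12, 2.58 and 4.14 CPM in LPS libraries and 2.91, 3.65 and 4.51 CPM in LPS plus RSBD libraries. The lowest control library was thus above the highest of the other 6. Hspa1a fell by 2.26 ± 0.32 after LPS (edgeR adjusted p = 0.00397), which is 4.78-fold lower.

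Hspa1b (chromosome 17, 34956436 to 34959238) measured 9.99, 21.01 and 21.5 CPM in control, 2.75, 2.87 and 4.07 CPM in LPS and 3.40, 3.65 and 5.38 CPM in LPS plus RSBD libraries. Control 1 was again the lowest of its group and still above all libraries of the other groups. Hspa1b fell by 2.44 ± 0.32 after LPS (edgeR adjusted p = 0.00326), the largest change among the 10 genes. The pair's coding sequences were 99.4% identical in the GENCODE M21 transcripts, and 38.1% of all stretches of 150 bases (the read length) of the Hspa1a transcript occur unchanged in that of Hspa1b. How reads were divided between them is therefore uncertain. Summed into 1 row, they fell by 2.36 ± 0.31 (edgeR adjusted p = 0.00349). A gene model on the opposite strand, Gm20481, overlaps Hspa1a by 2225 bases, and the sources used here do not say whether counting used strand.

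Of the helpers of HSP70, Hsph1 encodes HSP110, which exchanges the nucleotide of HSP70 and so sets its substrate free. It measured 132.6, 210.2 and 210.5 CPM in control, 34.5, 42.4 and 56.3 CPM in LPS and 48.0, 50.1 and 78.8 CPM in LPS plus RSBD libraries. Every control library lay above every other library. Hsph1 (chromosome 5, 149614287 to 149636376) fell by 2.05 ± 0.27 after LPS (edgeR adjusted p = 0.00363), 4.15-fold. Among the 3 genes with a row of 3 heat shock units it was the one with the largest change, as Hspd1 fell by 0.51 and Hspe1 did not pass.

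Dnajb1 encodes HSP40, which delivers substrates to HSP70 and stimulates its ATPase. Its levels were 52.8, 85.1 and 77.4 CPM in control, 37.5, 46.5 and 48.0 CPM in LPS and 38.3, 38.0 and 45.6 CPM in LPS plus RSBD libraries. Control 1 lay nearest to the treated libraries, with no overlap. Dnajb1 (chromosome 8, 83608193 to 83612653) fell by 0.71 ± 0.17 (edgeR adjusted p = 0.0249), a call lost without control 2, control 3, LPS 1 or LPS 2 (adjusted p = 0.0859, 0.078, 0.059 and 0.071). Bag3 encodes a co-chaperone that hands HSP70 clients to autophagy. It measured 42.5, 59.6 and 59.96 CPM in control, 35.5, 42.7 and 41.4 CPM in LPS and 47.98, 42.9 and 38.3 CPM in LPS plus RSBD libraries, so all groups overlapped. Its difference after LPS was -0.44 ± 0.14 (chromosome 7, 128523616 to 128546981; edgeR adjusted p = 0.0611). It passed without control 1 (adjusted p = 0.0216) and in DESeq2 (adjusted p = 0.0347).

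Hsp90aa1 encodes the inducible cytosolic HSP90, which matures kinases and steroid receptors and holds HSF1 inactive. It was the most abundant inducible member, at 738.6, 984.3 and 912.3 CPM in control, 343.4, 358.5 and 457.6 CPM in LPS and 414.6, 353.8 and 524.7 CPM in LPS plus RSBD libraries. The control range lay clear of both other groups. Hsp90aa1 (chromosome 12, 110690605 to 110702728) fell by 1.18 ± 0.17 after LPS (edgeR adjusted p = 0.00417). Hspb1 encodes HSP27, a small chaperone that holds unfolded proteins without ATP. It measured 105.4, 122.1 and 112.0 CPM in control, 32.0, 38.4 and 45.2 CPM in LPS and 49.0, 34.5 and 57.3 CPM in LPS plus RSBD libraries. The control libraries were close together and well above the rest. Hspb1 (chromosome 5, 135887919 to 135889563) fell by 1.55 ± 0.18 (edgeR adjusted p = 0.00282), the smallest p among the 10.

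Of the constitutive genes, Hspa8 encodes HSC70, the housekeeping cytosolic HSP70. Its levels were 1613, 2007 and 1996 CPM in control, 706.9, 944.1 and 1030.0 CPM in LPS and 719.1, 902.3 and 1108 CPM in LPS plus RSBD libraries. No library of either treated group reached the lowest control. Hspa8 (chromosome 9, 40800984 to 40810087) fell by 1.07 ± 0.19 (edgeR adjusted p = 0.00773), a larger estimate than those of the inducible genes Dnajb1 and Bag3. Differences between genes in their fold changes were not tested.

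Hspd1 and Hspe1 encode HSP60 and HSP10, the barrel and lid of the chaperonin of the mitochondrial matrix. Hspd1 (chromosome 1, 55077835 to 55088243) measured 139.3, 168.6 and 159.0 CPM in control, 95.6, 116.6 and 115.5 CPM in LPS and 114.0, 111.4 and 119.6 CPM in LPS plus RSBD libraries, with control above the rest. It fell by 0.51 ± 0.10 (edgeR adjusted p = 0.0118, and 0.0504 without control 2). Hspe1 (chromosome 1, 55088132 to 55091307) measured 47.9, 45.7 and 41.9 CPM in control, 28.4, 45.5 and 48.05 CPM in LPS and 35.95, 36.1 and 40.5 CPM in LPS plus RSBD libraries. LPS 1 was low and the other LPS libraries were within or above the control range. Its difference was -0.15 ± 0.17 (edgeR adjusted p = 0.563), with a 95% interval from -0.53 to 0.23, and it was 0.051 without LPS 1. GENCODE M21 holds 5 genes named as pseudogenes of Hspd1 and 6 of Hspe1, with which reads could be shared. Pseudogenes under other names were not counted for any member.

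**Figure D3:**
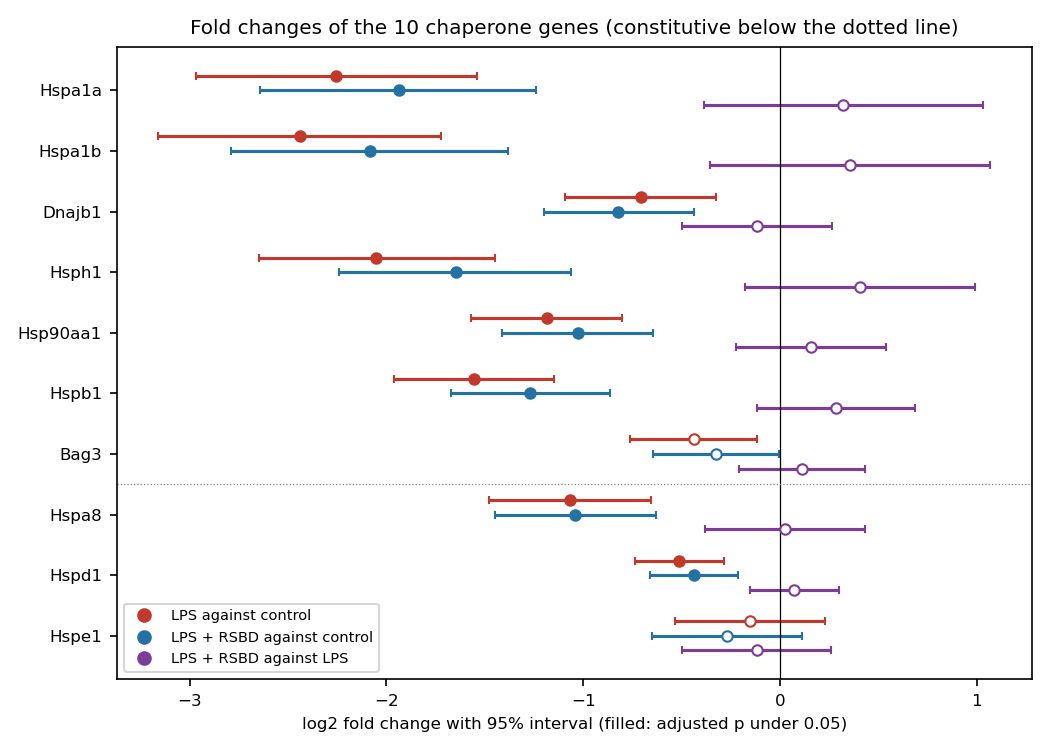
Log2 fold changes of the 10 genes in 3 comparisons. Points are edgeR estimates, whiskers are 95% intervals, and filled points have an adjusted p under 0.05. In both comparisons with control all estimates lie below 0 and 8 of 10 are filled, while in LPS plus RSBD against LPS none is filled and every interval includes 0.

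RSBD did not bring a detectable change in these genes. In LPS plus RSBD against LPS, edgeR called 0 of the 10 and 0 of all 15636 genes (0% in either direction). At an unadjusted p under 0.05 there were 0 of the 10 and 1473 of all genes (9.42%), and DESeq2 called 153 genes and limma on log2(TPM + 1) 1 gene, none of them among the 10. The groups overlapped for all 10 genes, where 7.18% of all genes lay higher and 5.46% lower without overlap. Estimates were between -0.12 (Hspe1) and 0.41 (Hsph1), and 8 of 10 were above 0. For Hspa1b the log2 difference was 0.35 ± 0.32, with a 95% interval from -0.36 to 1.07. For Hsph1 it was 0.41 ± 0.26 (-0.18 to 0.99), and for Hspb1 0.28 ± 0.18 (-0.12 to 0.69). Hspa8 gave 0.026 ± 0.18 (-0.38 to 0.43) and Hspd1 0.074 ± 0.10 (-0.15 to 0.30), so the interval was narrowest for Hspd1. A p that misses the threshold does not show that the groups are alike.

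Against control, LPS plus RSBD lungs were also low in chaperone transcripts. This comparison shares its control libraries with that of LPS against control. Of the 10 genes 8 fell and 0 rose, where 1.8% of all genes fell and 1.89% rose (3.7% in either direction). Without overlap 9 of the 10 lay lower, where 15% of all genes lay lower and 15.4% higher. Hspa1a fell by 1.94 ± 0.32, Hspa1b by 2.08 ± 0.32 and Hsph1 by 1.65 ± 0.26 (edgeR adjusted p = 0.015, 0.0136 and 0.0165). Hspb1 fell by 1.27 ± 0.18, Hspa8 by 1.04 ± 0.19 and Hsp90aa1 by 1.03 ± 0.17 (adjusted p = 0.0112, 0.0207 and 0.0165). Dnajb1 fell by 0.82 ± 0.17 and Hspd1 by 0.44 ± 0.10 (adjusted p = 0.0344 and 0.0449). Bag3 and Hspe1 did not pass, at -0.33 ± 0.14 and -0.27 ± 0.17 (adjusted p = 0.213 and 0.379). The count of 8 rested on single libraries: it was 1 without control 2 or RSBD 2 (Hspb1 in both), 2 without control 3 (Hspa1b and Hspb1) and 5 without RSBD 1. Hspd1 and Dnajb1 were the least stable, as Hspd1 lost its call in 10 of 19 alternatives (every fit that left out a library other than LPS 1, the replicate block at adjusted p = 0.058, and limma with no filter) and Dnajb1 in 8 of 19 (among them the fit of the 2 groups alone, at adjusted p = 0.0626). The adjusted p of the genes lost in the 4 fits named first was between 0.051 and 0.151, and their direction was kept.

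Most of the 10 genes shared the same extreme library within a group. Control 1 was the lowest control library for 9 of the 10 genes, and LPS 1 the lowest LPS library for all 10. In the LPS plus RSBD group, RSBD 3 was the highest for 9 of 10. The exceptions were Hspe1, for which control 1 was the highest control library, and Bag3, for which RSBD 3 was the lowest of its group. How often these libraries were the lowest or highest over all genes tested was not counted. The counts are thus not shown to be particular to chaperones.

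Levels per length were compared with the authors' TPM values, which allow genes to be ranked. In control lungs Hspa8 was the most abundant at 1350 ± 208 TPM, followed by Hsp90aa1 (492 ± 87.4), Hspb1 (228 ± 24.1), Hspd1 (122 ± 16.4), Hspe1 (104 ± 5.40) and Hsph1 (95 ± 27 TPM). Below these came Dnajb1 (43.8 ± 11.6), Bag3 (38.5 ± 8.28), Hspa1b (11.5 ± 4.54) and Hspa1a (8.70 ± 2.93 TPM). Neighbours whose ranges overlapped were Hspd1 with Hspe1, Hspe1 with Hsph1, Dnajb1 with Bag3, and Hspa1b with Hspa1a. In LPS lungs the order changed in the middle. Hspb1 (72.1 ± 6.5 TPM) stood below Hspe1 (87.4 ± 16.0) and Hspd1 (80.0 ± 1.23), and Hsph1 (20.9 ± 3.03) below Bag3 (26.4 ± 0.723) and Dnajb1 (24.9 ± 0.931 TPM). The ranges of Hspb1, Hspd1 and Hspe1 overlapped each other, as did those of Hsph1 and Dnajb1. In LPS plus RSBD lungs Hspb1 (88.6 ± 21.3 TPM) was again above Hspd1 (83.8 ± 2.74) and Hspe1 (81.6 ± 4.21 TPM) by its mean, with a range that overlapped theirs. In the LPS group Hspa8 (602 ± 54.4 TPM) and Hsp90aa1 (201 ± 22.3 TPM) stayed at the top and the Hspa1 pair at the bottom.

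Within a library, Hspa1a with Hspa1b and Hsp90aa1 were also lower relative to their constitutive partners. The summed TPM of Hspa1a and Hspa1b was 1.05%, 1.64% and 1.69% of that of Hspa8 in control libraries, 0.587%, 0.501% and 0.697% in LPS libraries and 0.753%, 0.713% and 0.777% in LPS plus RSBD libraries. The control values were above all others. The TPM of Hsp90aa1 was 58%, 53.9% and 54.6% of that of its constitutive partner Hsp90ab1 in control libraries, 41.9%, 38.2% and 44% in LPS and 42.6%, 34.9% and 47.8% in LPS plus RSBD libraries, again without overlap between control and the rest. A ratio with no inducible form, Hspa8 over the mitochondrial Hspa9, was also lower outside the control group. It was 1150%, 1220% and 1400% in control, 568%, 744% and 768% in LPS and 519%, 646% and 879% in LPS plus RSBD libraries. A lower ratio was thus not particular to inducible forms. These ratios are a description with no test, since the genes were chosen with results known. A ratio shows that the partners changed unequally and not that either stayed level. Hsp90ab1 itself fell by 0.76 ± 0.15 after LPS (edgeR adjusted p = 0.0102).

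**Figure D4:**
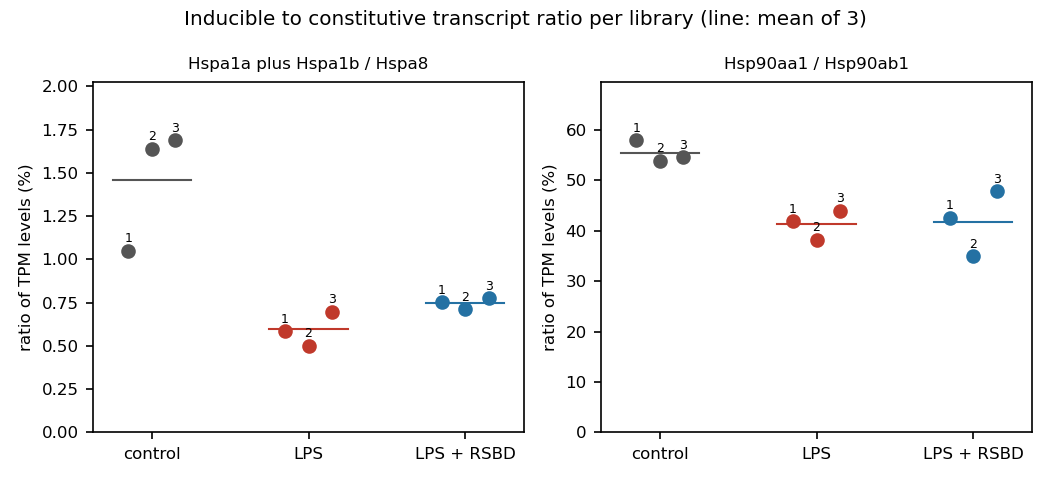
Ratio of inducible to constitutive transcript in each library, in percent of TPM. The left panel shows Hspa1a plus Hspa1b over Hspa8 and the right panel Hsp90aa1 over Hsp90ab1, with libraries numbered 1 to 3 and the group mean as a line. Control libraries lie above all others in both panels, from 1.05% on the left and from 53.9% on the right.

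Other chaperones were taken from lists of the pathway. The counts in these lists and in those further on stand against 8.63% of all genes lower and 8.79% higher after LPS, and against 1.8% lower and 1.89% higher in LPS plus RSBD against control. Of 20 further heat-inducible chaperones and HSF1 targets, 12 fell after LPS, 1 rose and 7 did not pass, with a median of -0.50. Ahsa2, a co-chaperone of HSP90, went from 49.0 ± 5.82 to 25 ± 1.28 CPM and fell by 0.97 ± 0.10 (edgeR adjusted p = 0.00198). Hspa4l, a relative of HSP110, fell by 1.17 ± 0.15 and Dnaja1, an HSP40 of the cytosol, by 0.91 ± 0.14 (adjusted p = 0.00304 and 0.00493). The gene that rose was Ubb, a ubiquitin gene, by 0.48 ± 0.11 (adjusted p = 0.0195). In LPS plus RSBD against control 8 of the 20 fell and 0 rose.

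Of 27 constitutive cytosolic chaperones and co-chaperones 6 fell, 1 rose and 20 did not pass, with a median of -0.12. Differences between the lists were not tested. Beside Hsp90ab1, Ptges3, the HSP90 co-chaperone p23, fell by 0.57 ± 0.11 and Dnajb2, an HSP40, by 0.54 ± 0.10, and Hspa12b, a distant HSP70 relative of endothelium, rose by 0.60 ± 0.11 (edgeR adjusted p = 0.00976, 0.00998 and 0.00929). In the endoplasmic reticulum list 4 of 17 fell and 1 rose (median -0.31). Hspa5, the HSP70 of that compartment known as BiP, fell from 610.1 ± 51.6 to 384.2 ± 75.5 CPM (-0.67 ± 0.15, adjusted p = 0.0171). Hyou1, Creld2 and Dnajc3 also fell, by 0.80, 0.82 and 0.44, and Dnajc10 rose by 0.25.

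Mitochondrial chaperones and proteases other than the Hspd1 and Hspe1 pair gave 1 fall, that of the disaggregase Clpb by 0.43 ± 0.12 (edgeR adjusted p = 0.0325), among 14 genes with a median of -0.027. The level of Hspa9, the mitochondrial HSP70, was 172 ± 13.9 CPM in control against 152 ± 4.30 CPM in LPS lungs, and it did not pass (adjusted p = 0.151). Of 14 subunits of the cytosolic chaperonin TRiC and of prefoldin, which fold actin and tubulin, edgeR called 0, with a median of 0.054. Tcp1 stands in this list and in the heat-inducible one. Among the regulators, Hsf1 itself fell from 50.7 ± 2.69 to 38.4 ± 2.22 CPM (-0.40 ± 0.09, adjusted p = 0.0207) and Hsf4 by 0.61 ± 0.18 (adjusted p = 0.0433), while Hsf2, Hsbp1 and Hsf2bp did not pass and Hsf5 was too low to test. In LPS plus RSBD against control 0 of the 5 regulators tested passed, with Hsf1 at -0.27 ± 0.09 (edgeR adjusted p = 0.127). In that comparison 4 of the 27 constitutive cytosolic genes and 2 of the 17 of the endoplasmic reticulum fell, and 0 rose. The mitochondrial list and that of TRiC with prefoldin had 0 calls among 14 genes each. In LPS plus RSBD against LPS edgeR called 0 genes of any of these lists. The smallest p of the further heat-inducible list there were those of the HSP40 genes Dnajb5 (-0.35 ± 0.11) and Dnaja4 (0.33 ± 0.17; edgeR adjusted p = 0.408 and 0.584). In the constitutive cytosolic list they were those of Hspb7, a small heat shock protein of heart and muscle (1.33 ± 0.46), and Hspa12b (-0.30 ± 0.11; adjusted p = 0.436 and 0.458).

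**Figure D5:**
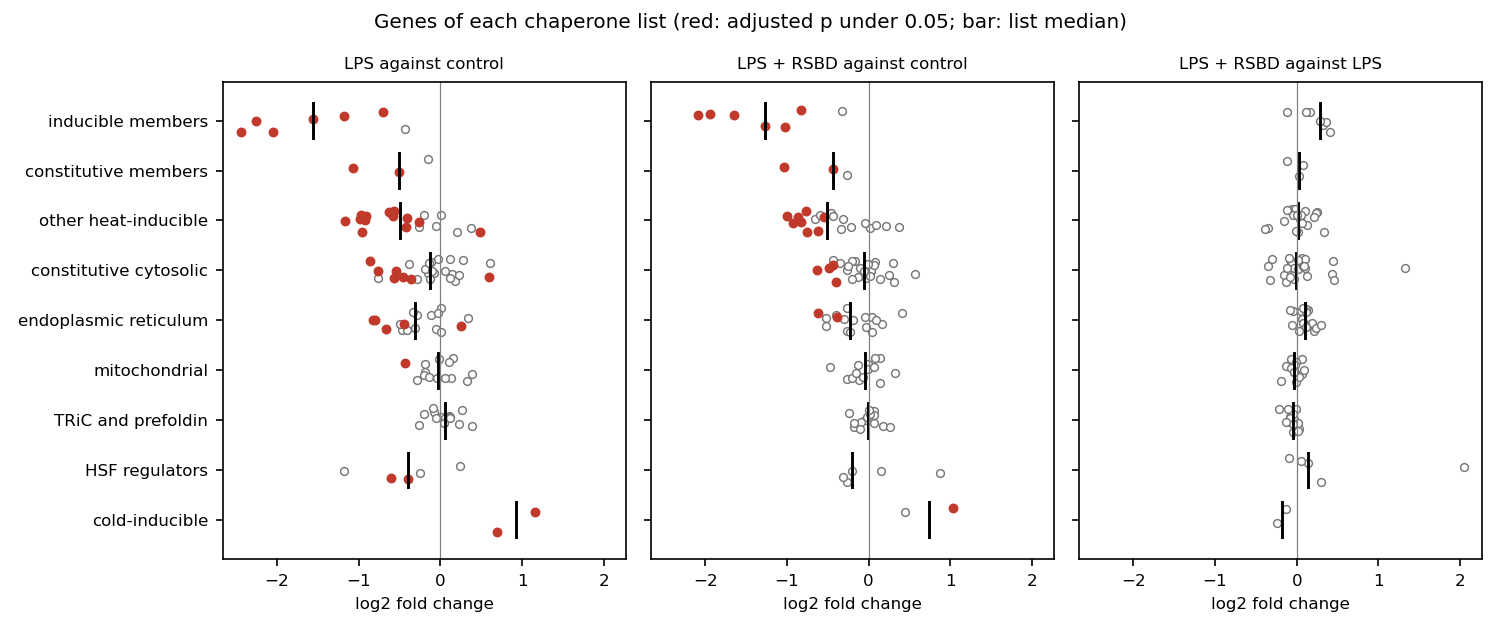
Log2 fold change of every tested gene of the chaperone lists in 3 comparisons. Points are genes (red where the adjusted p is under 0.05), vertical bars are list medians, and rows are lists. In LPS against control the inducible members lie farthest to the left with a median of -1.55, TRiC with prefoldin and the mitochondrial list lie near 0, and the cold-inducible genes lie to the right.

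The genes known to be induced by mild cold went the other way. Cirbp, an RNA-binding protein made when body or culture temperature drops (chromosome 10, 80165985 to 80172786), measured 72.1, 52.8 and 66.4 CPM in control, 155.5, 150.9 and 120.8 CPM in LPS and 159.6, 117.9 and 112.5 CPM in LPS plus RSBD libraries. All 6 treated libraries were above all controls. Cirbp rose by 1.16 ± 0.17 after LPS (edgeR adjusted p = 0.00417) and by 1.03 ± 0.16 in LPS plus RSBD against control (adjusted p = 0.015). Its relative Rbm3 (chromosome X, 8138975 to 8145880) measured 182.7, 142.6 and 193.4 CPM in control, 264.2, 312.1 and 259.5 CPM in LPS and 240.9, 268.5 and 198.0 CPM in LPS plus RSBD libraries. It rose by 0.69 ± 0.14 after LPS (adjusted p = 0.0138) and did not pass in LPS plus RSBD against control (0.45 ± 0.14, adjusted p = 0.104). Neither passed in LPS plus RSBD against LPS (adjusted p = 0.855 and 0.632).

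Other gene groups that differed between the same libraries were measured beside the chaperones. Immediate early genes, which respond to handling and to injury within minutes, fell in 6 of 19 cases after LPS (median -0.34), led by Egr1 (-2.42), Fosb (-3.26) and Ier3 (-0.65). Their median was 0.13 in LPS plus RSBD against control, with 1 higher and 2 lower of 19, where 8 of the 10 chaperones were lower. In LPS plus RSBD against LPS their median was 0.35 and 9 of 19 lay higher without overlap, where 7.18% of all genes did, but 0 passed, with the smallest p for Egr1 (2.29 ± 0.27) and Fos (1.45 ± 0.22; edgeR adjusted p = 0.205 and 0.284). Clock genes fell in 9 of 17 cases after LPS (median -0.40), with Per2 by 1.22, Bhlhe40 by 0.88 and Per3 by 0.68, and in LPS plus RSBD against control their median was 0.14, with Dbp higher and Arntl lower. In LPS plus RSBD against LPS 0 of 17 clock genes passed, with a median of 0.63 and the smallest p for Hlf (1.21 ± 0.19) and Tef (0.87 ± 0.14; edgeR adjusted p = 0.284 for both). Without overlap 9 of these 17 lay higher and 2 lower, where 7.18% and 5.46% of all genes did.

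Summed markers of macrophages and neutrophils spanned 1840 to 3400 CPM in control, 5290 to 9650 CPM in LPS and 1510 to 4570 CPM in LPS plus RSBD libraries, with 8 of 13 higher after LPS and 2 of 13 in LPS plus RSBD against control. Of 10 airway epithelial markers 5 fell after LPS and 0 changed in LPS plus RSBD against control. Cardiac muscle markers summed to 132 to 514 CPM in control, 110 to 169 CPM in LPS and 190 to 749 CPM in LPS plus RSBD libraries. After LPS 1 of 12 was called. In LPS plus RSBD against LPS 0 of these 12 passed, with a median of 1.82. Without overlap 8 of them lay higher and 0 lower there, where 7.18% and 5.46% of all genes did. For smooth muscle edgeR called 0 of 8 after LPS, and its sums overlapped between all groups (363 to 771 CPM over all 9 libraries). No marker of these lists was at 0 in any library. The part of these markers and of the cold-inducible, immediate early and clock genes in the chaperone differences was not tested.

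The genes most like the chaperones across the 9 libraries were found by the root mean square difference of their log2 levels, each centred on its own mean. For Hspa8 they were Dnaja1 (0.114), Stip1 (0.140), Maff (0.170), Ahsa2 (0.172) and Adora2b (0.191), where Hspa8 itself varied by 0.547 and the median of all genes was 0.594. Dnaja1, Stip1 and Ahsa2 are chaperones or co-chaperones, Maff is a small stress-responsive transcription factor and Adora2b an adenosine receptor. For Hspa1a and Hspa1b summed, which varied by 1.08, the nearest were Trim69 (0.367), Tnfsf9 (0.388), Arhgap40 (0.434), Gfpt2 (0.441) and Pmvk (0.450), with a median over all genes of 1.10. Tnfsf9, the ligand of the receptor 4-1BB, measured 18.4 ± 7.34 CPM in control, 3.65 ± 0.513 in LPS and 4.19 ± 0.768 CPM in LPS plus RSBD libraries. Pmvk, an enzyme of the mevalonate pathway, measured 74.9 ± 30.1, 22.9 ± 2.82 and 23.6 ± 5.74 CPM. In the same order of groups, Trim69 was low, at 1.47 ± 0.65, 0.435 ± 0.0693 and 0.49 ± 0.206 CPM. Arhgap40 was low too, at 3.15 ± 1.14, 0.934 ± 0.153 and 0.774 ± 0.186 CPM, and log2 levels of such genes depend more on the prior count. These values describe likeness in 9 libraries that share 3 groups and have no test.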

How the data were processed

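Per the labels' protocols, mRNA was enriched and strand-specific libraries were sequenced as paired reads of 150 bases. The tools named are StringTie 2.2.0, HISAT2 2.2.1, DESeq2 1.38.3 and fastp 0.23.2, and the build GRCm38 (mm10), per the submitters' processing notes, which give no roles. For the counter, its strand setting and the annotation, nothing is stated in the sources used here. The authors deposited estimated counts per gene, not normalized and whole in every cell, and TPM values for the same genes. Columns named RS were read as the RSBD libraries of the same number, since no other group's label begins with these letters.

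Counts were fitted in R 4.3.3 with edgeR 4.0.16: filterByExpr (minimum count 10, total 15) left 15636 genes, TMM gave the scaling, and 1 model by group held all 9 libraries, with robust quasi-likelihood dispersion and 2-sided F tests. The median SE was 0.15 (log2). Replicates of a group differed beyond sampling noise. Alternatives were RLE scaling, no scaling, no filter, DESeq2 1.42.0, limma 3.58.1 on log2(TPM + 1) or log2(TPM + 0.1), the 2 compared groups alone, a replicate block, Hspa1a and Hspa1b summed, and each library left out. Log CPM used a prior count of 2. Promoters are from RefSeq (GRCm38.p6), and gene coordinates from the deposited table, identical in GENCODE M21 for all 10 genes. The members and lists were chosen with earlier results of these data known. Named genes are the 10 and the members of lists with up to 5 calls (those called are named, the others mostly counted). Of other lists they are the 3 called members with the smallest p in LPS against control. The 2 members with the smallest p in LPS plus RSBD against LPS are added. Any list member called there is named too, as are Hsf1, Hsp90ab1, Hspa9 and Hspa5. The last are the 5 genes outside the 10 that lie nearest to each reference.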

Additional observations from a re-analysis of the deposited data

How the results depend on the processing

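With 3 libraries per group, single libraries decided many calls. Over the fits that each leave out 1 library, the number of chaperones called lower after LPS ranged from 6 to 9 and that in LPS plus RSBD against control from 1 to 8, with 0 called higher, and 0 called in LPS plus RSBD against LPS. After LPS, Hspa1a, Hspa1b, Hsph1, Hsp90aa1, Hspb1 and Hspa8 passed under every alternative that gives the gene a value, and in LPS plus RSBD against control Hspb1 did. All genes called ranged from 786 to 2870 for LPS against control, 0 to 4 for LPS plus RSBD against LPS and 94 to 961 for LPS plus RSBD against control, against 2723, 0 and 578 with all libraries. For LPS plus RSBD against control DESeq2 called 1699 genes, limma 313 with log2(TPM + 1), 307 with log2(TPM + 0.1) and 137 with no filter on low values. For LPS against control limma with no filter called 1532. For LPS plus RSBD against LPS DESeq2 called 153, and limma with either pseudocount and filter, and the fit of the 2 groups alone, 1 each. Limma on TPM shifted the split of LPS calls to 34.4% higher with log2(TPM + 1), from 50.5%, and those of LPS plus RSBD against control to 31.3% from 51.2%, with a median LPS change over all genes of -0.089. The authors' TPM values summed to between 795528 and 859032 per library, so their totals were unequal, and they were not rescaled for limma. Directions that turned were those of Hspe1 after LPS without LPS 1 (0.051; range -0.27 to 0.051) and, in LPS plus RSBD against LPS, of Hspa8 without LPS 1 (-0.12) or RSBD 3 (-0.15; range -0.15 to 0.17), Hspd1 without LPS 1 (-0.014; range -0.014 to 0.12) and Hsp90aa1 without RSBD 3 (-0.019; range -0.019 to 0.28), and none of these passed. Same-numbered libraries did not pair (correlations of deviations between -0.215 and 0.122), and the labels name no shared litter or day. With the replicate number as a block 8, 0 and 7 chaperones were called lower, and 240 genes in all for LPS plus RSBD against control. The cause of these shifts was not tested.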
